A study of Mus musculus with 4 samples.

Results

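Mouse embryonic stem cells labelled Fis1-/- were compared with their parental line at the level of messenger RNA, with 1 library on each side. A gene entered the comparison when it had a protein-coding RefSeq transcript and its deposited FPKM values (fragments scaled to transcript length and library size), summed over its transcripts, averaged at least 1 over the 4 libraries of the series. These conditions left 10688 of the 20619 protein-coding genes in the table. The series holds the parental line E14Tg2a, called control here, and lines labelled Dnm1l-/-, Fis1-/- and Mff-/-, with 1 library each. All 4 lines are embryonic stem cells of strain 129/Ola at passages 30 to 35. They were grown on mouse embryonic fibroblast feeders in serum-containing medium with leukemia inhibitory factor and the labels name no other treatment. The labels do not say how Fis1 was disrupted or whether the Fis1-/- line is a single clone. With no replicate libraries, no difference below has a test. Each is a value, and a difference between the lines cannot be told apart from one between these 2 cultures. In bulk RNA, fewer cells of a kind and less RNA per cell cannot be told apart either.

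Mitochondria divide when the dynamin-like GTPase Drp1, the product of Dnm1l, is recruited to the outer membrane and constricts it. Fis1 is a small tail-anchored protein of the outer mitochondrial and peroxisomal membranes. In mammals it binds regulators of lysosome contact and of mitophagy, while Mff and the Mief proteins are the main Drp1 receptors. When mitochondria or the endoplasmic reticulum are stressed, translation of Atf4 increases and the factor switches on genes for amino acid synthesis, uptake and transfer RNA charging, the integrated stress response.

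The targeted gene was read first. Fis1 lies on chromosome 5 and has a pair of transcripts in the table, which start at different positions and end together. Summed, it was at 103 FPKM in control beside 96.4 in Dnm1l-/-, with 56.2 in Fis1-/- and 110 in Mff-/-, so Fis1-/- was the lowest of the 4 libraries and kept 54.6% of the control level. The difference of log2(FPKM + 1), Fis1-/- minus control, was -0.86. The log2 ratio of the sums, without the pseudocount, had an interval of -0.95 to -0.78 for counting error only. The 2 transcripts differed from control in opposite directions. NM_025562, the shorter one, was at 89.4, 80.4, 19.5 and 94.2 FPKM in control, Dnm1l-/-, Fis1-/- and Mff-/-, and NM_001163243 was at 13.6, 16.0, 36.8 and 15.6. The share of the shorter transcript was 86.8% in control, 83.4% in Dnm1l-/- and 85.8% in Mff-/-, against 34.6% in Fis1-/-. Fragments from exons that both transcripts hold are divided between them by the authors' estimate, so the summed value depends less on that division than either part.

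The gene that follows Fis1 on the same strand, Cldn15, which encodes a tight junction claudin, was at 0.926 FPKM in control beside 0.308 in Dnm1l-/-, with 22.7 in Fis1-/- and 0.112 in Mff-/-. Only the Fis1-/- library was above 1 FPKM. The ratio of Fis1-/- to control was 24.5, with a counting interval of 19.04 to 31.8, from about 65 and 1515 estimated fragments. Cldn15 begins 1635 bases after the end of Fis1. Another 4 genes compared within 200 kb of Fis1 stayed within 1.5-fold of control. Rabl5 was at 5.63 FPKM in control against 6.78 in Fis1-/-, Znhit1 at 28.5 and 22.7, Plod3 at 14.7 and 14.4, and Ap1s1 at 40.3 and 34.0. The windows around the starts of these 3 transcripts are shown because their FPKM values differed in the Fis1-/- library. Use of the starts themselves was not measured. Each holds 250 bases before and 50 bases after the start, from RefSeq on GRCm38.p6, 5′ to 3′ on the strand of the gene.
Fis1, start of the longer transcript, chr5:136953025-136953324, plus strand: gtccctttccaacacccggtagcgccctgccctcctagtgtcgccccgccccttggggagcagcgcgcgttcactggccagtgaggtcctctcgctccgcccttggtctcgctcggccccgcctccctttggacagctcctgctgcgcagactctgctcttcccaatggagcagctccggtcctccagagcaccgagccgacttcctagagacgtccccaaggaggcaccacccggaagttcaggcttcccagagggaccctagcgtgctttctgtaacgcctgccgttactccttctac
Fis1, start of the shorter transcript, chr5:136961827-136962126, plus strand: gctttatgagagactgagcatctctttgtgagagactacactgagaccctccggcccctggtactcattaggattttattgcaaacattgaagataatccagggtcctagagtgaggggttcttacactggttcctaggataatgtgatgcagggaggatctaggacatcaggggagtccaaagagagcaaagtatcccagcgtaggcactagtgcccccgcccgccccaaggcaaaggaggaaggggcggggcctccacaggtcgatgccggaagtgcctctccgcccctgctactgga
Cldn15, chr5:136967619-136967918, plus strand: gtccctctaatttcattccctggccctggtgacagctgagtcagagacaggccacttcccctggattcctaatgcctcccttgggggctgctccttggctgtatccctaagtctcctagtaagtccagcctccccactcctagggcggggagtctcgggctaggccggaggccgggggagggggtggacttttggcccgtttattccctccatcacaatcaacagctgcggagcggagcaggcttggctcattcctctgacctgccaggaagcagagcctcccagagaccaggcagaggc

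**Figure D1:**
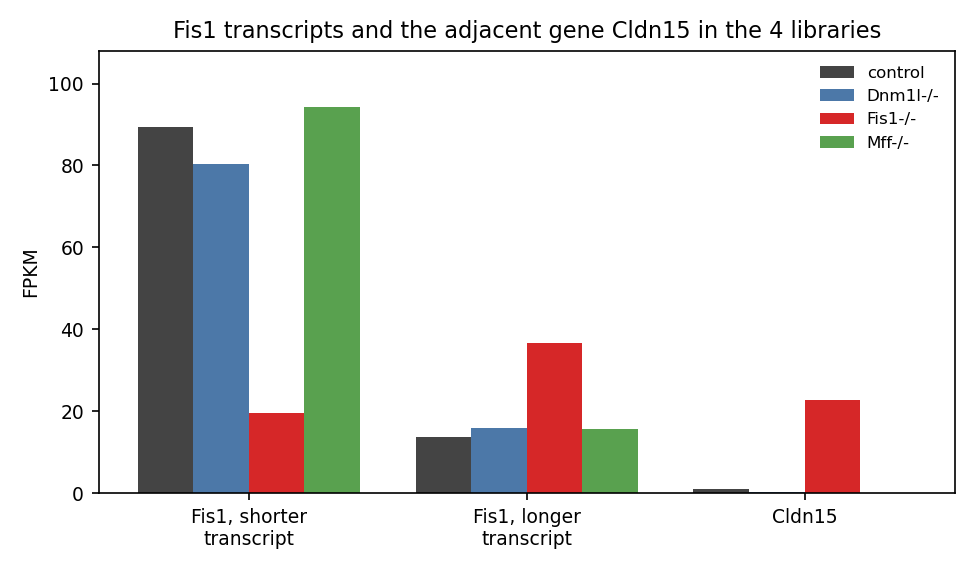
FPKM (linear axis, bars from 0) of the shorter and longer Fis1 transcripts and of Cldn15 in the 4 libraries, 1 bar a library and no error bars. The Fis1-/- bar is the lowest for the shorter transcript, at 19.5 FPKM, and the highest for the longer one, at 36.8, and for Cldn15, at 22.7.

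Across all genes the Fis1-/- and control libraries were close. Values given without names stand in the order control, Dnm1l-/-, Fis1-/- and Mff-/- where there are 4, and control then Fis1-/- where there are 2. The median difference was 0.01 on the log2(FPKM + 1) scale, the quartiles were -0.21 and 0.22, and 9354 genes (87.5%) lay within 1.5-fold of control. At least 2-fold higher in Fis1-/- were 192 genes (1.80%), and at least 2-fold lower were 202 (1.89%), of which 30 and 19 passed 4-fold. These 2 percentages are the background against which the gene lists below are read, except for genes under 1 FPKM in control. Their own share is given at the end of this paragraph. In all such counts 2-fold means a difference of at least 1 on the log2(FPKM + 1) scale. A gene whose plain FPKM ratio passes 2 can therefore stay uncounted. Ratios given with a counting interval are of plain FPKM. The genes just inside the threshold were Cltb, at 23.3 FPKM in control against 47.6 in Fis1-/-, and Snx21, at 5.48 and 2.24. Just outside were Atp8b2, at 8.60 and 18.2, and Hook2, at 43.2 and 21.1. Among the 15 lowest genes that belong to no list discussed below, the proteoglycan gene Srgn was at 5.20, 0.323, 0.246 and 2.03 FPKM, the Toll-receptor signalling inhibitor gene Irak3 at 7.90, 0.670, 0.836 and 8.82, the ATP-gated channel gene P2rx3 at 4.53, 0.209, 0.112 and 6.16, and Fetub, a secreted protease inhibitor, at 4.73, 0.843, 0.240 and 15.5. Fis1-/- and Dnm1l-/- were the low libraries for each of them. Of 253 genes at less than 1 FPKM in control, 64 (25.3%) were higher. None of these could be lower by the threshold, since the pseudocount of 1 does not allow it, and each passed the filter through its other libraries. Of 737 genes at 100 FPKM or more in control, 0 were higher and 12 lower.

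**Figure D2:**
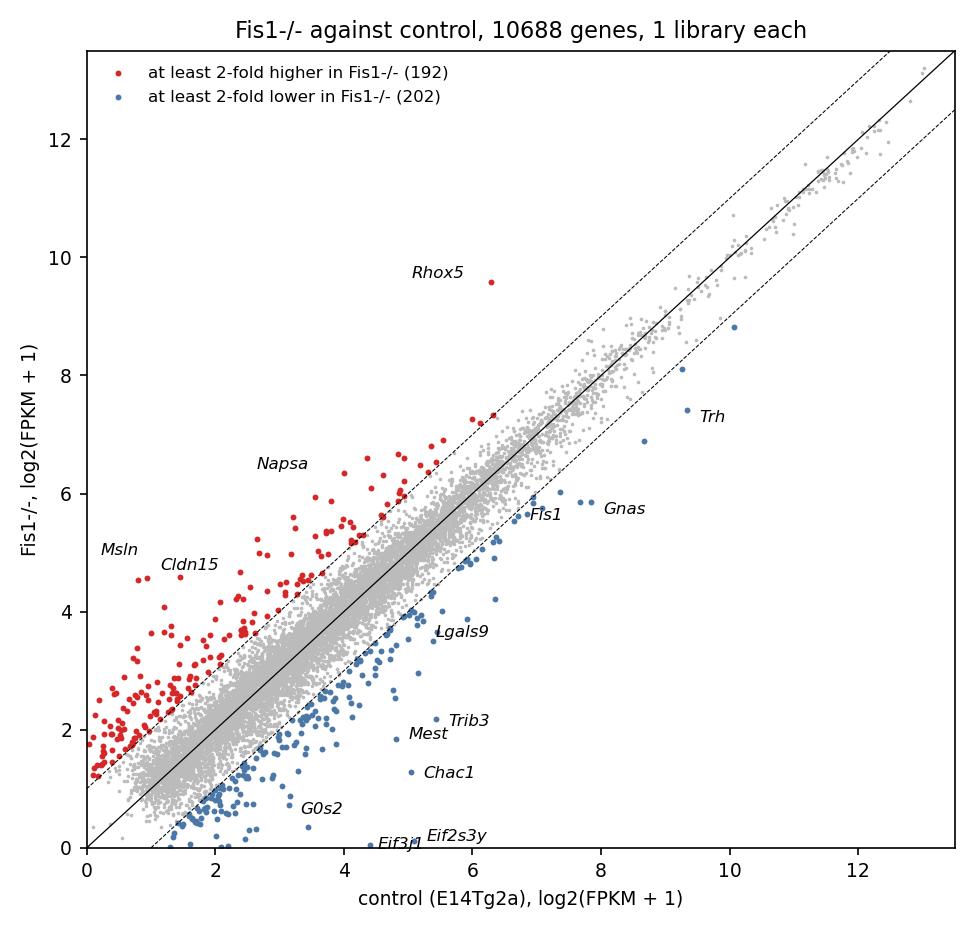
Each point is 1 of 10688 genes, with log2(FPKM + 1) in control on the horizontal axis and in Fis1-/- on the vertical axis. The dashed lines mark 2-fold. Rhox5, at 764 FPKM, is the most abundant in Fis1-/- of the 192 genes above the upper line, and the 202 below the lower line include Trh and Gnas among abundant genes.

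Members of the integrated stress response and of amino acid metabolism were lower in Fis1-/-. Lists of regulators, of outputs, of serine, one-carbon and amino acid synthesis, of amino acid transporters and of cytosolic tRNA synthetases had 98 distinct genes in the comparison. Of these, 22 were at least 2-fold lower and 0 at least 2-fold higher, 83 lay below control by any amount, and the median difference was -0.54 against 0.01 over all genes. The other knockout lines share the control library, so their values are no independent repeat. The same genes had 0 higher and 19 lower with a median of -0.45 in Dnm1l-/-, and 2 higher and 5 lower with a median of 0.11 in Mff-/-. Several members, among them Slc6a9, were placed in the lists because they were already known to differ in these libraries, so the counts describe the lists and are no independent evidence of their direction.

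Among the regulators, 5 of 17 lay 2-fold or more below control in Fis1-/-, with a median of -0.14. Trib3, a pseudokinase that restrains the response as its product accumulates, was at 42.0 FPKM in control beside 7.43 in Dnm1l-/-, with 3.52 in Fis1-/- and 47.4 in Mff-/-. That is 11.9-fold less in Fis1-/- than in control, with a counting interval of 10.5 to 13.6, and the lowest of the 4 libraries. Nupr1, a stress-induced chromatin protein, was at 80.4, 32.5, 17.6 and 213 FPKM. The transcription factor genes Atf3, at 11.6 FPKM in control against 2.20 in Fis1-/-, Cebpb, at 9.63 and 2.24, and Jdp2, at 8.16 and 3.48, completed the 5. The messenger RNA of Atf4 itself was not lower, at 133.5 FPKM in control beside 189.7 in Dnm1l-/-, with 151.4 in Fis1-/- and 199.4 in Mff-/-. Ddit3, which encodes the factor CHOP, was at 19.5 in control against 14.7 in Fis1-/-. Of the kinases that start the response, Eif2ak1, Eif2ak2, Eif2ak3 and Eif2ak4 differed from control by 0.09, 0.25, -0.10 and 0.03 on the log2(FPKM + 1) scale.

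Of the outputs, 9 of 21 were at least 2-fold lower, with a median of -0.72. Chac1, a glutathione-degrading enzyme, was at 31.9 FPKM in control beside 2.09 in Dnm1l-/-, with 1.43 in Fis1-/- and 40.2 in Mff-/-. This is a 22.3-fold ratio of control to Fis1-/- with a counting interval of 17.9 to 28.3. Control and Mff-/- were high and the other pair low. The remaining 8 were Pck2 (26.8 FPKM in control against 4.80 in Fis1-/-), Herpud1, Gdf15 (6.38 and 1.27), Stc2 (12.1 and 3.603), Ddit4 (44.8 and 15.2), Vldlr (2.54 and 0.570), Sesn2 (65.7 and 28.6) and Tsc22d3 (3.17 and 0.882). Gdf15 encodes a secreted stress hormone, and Ddit4 and Sesn2 encode inhibitors of mTORC1 signalling.

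The synthesis genes had 5 of 27 at least 2-fold lower and a median of -0.72. They were Pck2, the mitochondrial phosphoenolpyruvate carboxykinase, Mthfd2, Aldh18a1, Phgdh and Aldh1l2. Mthfd2, a mitochondrial folate enzyme, was at 80.0 FPKM in control beside 31.8 in Dnm1l-/-, with 29.1 in Fis1-/- and 101 in Mff-/-. Phgdh, which makes the first committed step from glycolysis to serine, was at 134, 49.8, 52.9 and 168 FPKM in the same order. Of other enzymes of the serine and glycine route, Psph, Shmt2 and Psat1 were lower without reaching 2-fold on the log2(FPKM + 1) scale. Psph was at 35.8 FPKM in control against 17.6 in Fis1-/-, Shmt2 at 147 and 74.7, and Psat1 at 152 and 88.1. Shmt1 was level, at 62.1 and 64.2. Asns, asparagine synthetase, was at 201 and 119.5.

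Among amino acid transporters, 4 of 17 were at least 2-fold lower, and the median was -0.54. The glycine transporter gene Slc6a9 was at 7.86 FPKM in control beside 0.683 in Dnm1l-/-, with 0.660 in Fis1-/- and 8.69 in Mff-/-. Slc7a1, for cationic amino acids, was at 14.8 in control against 5.71 in Fis1-/-, Slc1a3, for glutamate, at 3.13 and 0.842, and Slc7a5, for large neutral amino acids, at 81.9 and 37.5. Slc3a2, the partner chain of Slc7a5, was at 113 and 68.1. No cytosolic tRNA synthetase passed 2-fold, yet 18 of 20 lay below control, with a median of -0.42. The largest difference among them was that of Sars, for serine, at 104 FPKM in control against 57.3 in Fis1-/-, and Gars, for glycine, was at 192 and 116.

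**Figure D3:**
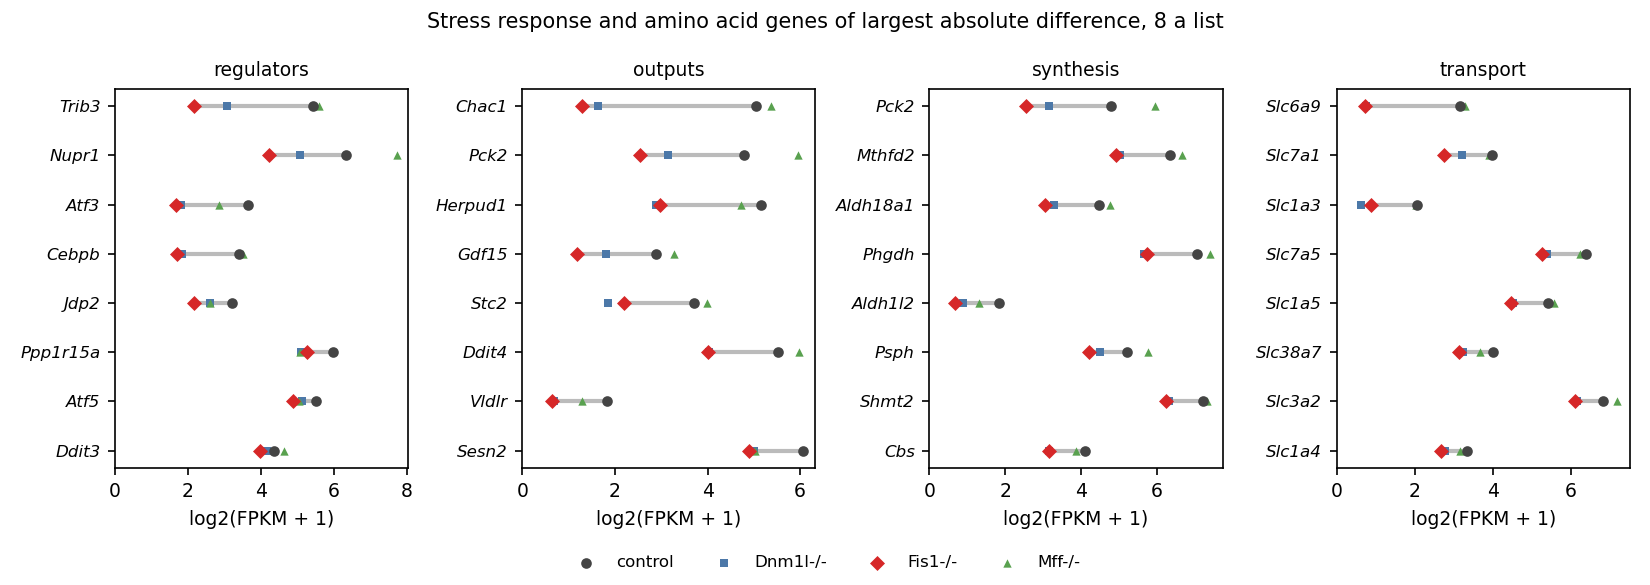
Values of log2(FPKM + 1) in the 4 libraries for the 8 genes of largest absolute difference in each of 4 lists, with a grey bar joining control (circle) to Fis1-/- (diamond). In each row the Fis1-/- diamond lies to the left of the control circle, with Chac1 going from 31.9 to 1.43 FPKM and Trib3 from 42.0 to 3.52.

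The composite site bound by ATF4 with CEBP factors was sought as TGATGNAA on both strands of the RefSeq promoter windows, which 8140 of the genes compared had. It was present in 220 of them (2.70%). In the stress lists it was present in 19 of 79 genes (24.1%), in 8 of 20 that were at least 2-fold lower (40.0%) and in 11 of the other 59 (18.6%). The same letters were in 14 of 154 promoters of all genes at least 2-fold lower (9.09%) and in 13 of 138 of those at least 2-fold higher (9.42%). The cyclic AMP response element TGACGTCA was in 1 of the 79 (1.27%) and in 3.96% of all. A match describes the letters of a window and not a bound site. The windows of 7 lower genes are shown around their match, which stands in capitals, in RefSeq sequence on GRCm38.p6, 5′ to 3′ on the strand of the gene. The eighth, Trib3, has its match 14 bases after the start.
Chac1, chr2:119351029-119351076, plus strand: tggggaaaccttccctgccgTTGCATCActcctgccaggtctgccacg
Pck2, chr14:55540143-55540190, plus strand: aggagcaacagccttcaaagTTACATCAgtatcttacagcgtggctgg
Herpud1, chr8:94386297-94386344, plus strand: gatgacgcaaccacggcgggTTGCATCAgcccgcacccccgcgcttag
Nupr1, chr7:126625553-126625600, minus strand: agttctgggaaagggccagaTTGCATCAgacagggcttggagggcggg
Atf3, chr1:191183416-191183463, minus strand: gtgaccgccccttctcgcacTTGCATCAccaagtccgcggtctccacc
Vldlr, chr19:27216800-27216847, plus strand: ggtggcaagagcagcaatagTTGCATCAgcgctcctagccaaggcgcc
Jdp2, chr12:85599363-85599410, plus strand: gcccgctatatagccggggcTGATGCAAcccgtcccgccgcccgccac
All but Jdp2 hold the match in the reverse orientation. Of these 7 genes Chac1 had the largest difference from control, -3.76 on the log2(FPKM + 1) scale, and Jdp2 the smallest, -1.03.

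Chaperones of the endoplasmic reticulum, which the ATF6 and XBP1 arms of the unfolded protein response control, were slightly higher. Of 25, 22 lay above control with a median of 0.27, and 0 were at least 2-fold higher. Hspa5, the lumenal Hsp70 BiP, was at 193 FPKM in control beside 249 in Dnm1l-/-, with 272 in Fis1-/- and 238 in Mff-/-. Hsp90b1 was at 208, 267.5, 305 and 285 FPKM, with Fis1-/- again the highest. Dnajc3, which encodes the kinase inhibitor p58IPK, came nearest to 2-fold, with a difference of 0.94 on the log2(FPKM + 1) scale. It was at 4.90 FPKM in control against 10.3 in Fis1-/-. The exception was Herpud1, a membrane protein of degradation from the endoplasmic reticulum, at 34.6, 6.38, 6.81 and 25.4 FPKM. It is the only gene of this list with TGATGNAA in its promoter window, shown above, and its chromosome 8 had a median difference of -0.29. The endoplasmic reticulum stress element, CCAAT then 9 bases then CCACG on either strand, was in 9 of 21 chaperone promoters (42.9%), in 15 of 8140 over all genes compared (0.184%), and not in the Herpud1 window. The windows of 4 chaperones are shown with the element in capitals, from RefSeq on GRCm38.p6, 5′ to 3′ on the gene's strand.
Hspa5, chr2:34772010-34772058, plus strand: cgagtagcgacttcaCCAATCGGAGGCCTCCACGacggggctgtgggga
Hsp90b1, chr10:86705623-86705671, minus strand: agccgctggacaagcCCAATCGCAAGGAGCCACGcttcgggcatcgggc
Pdia6, chr12:17266476-17266524, plus strand: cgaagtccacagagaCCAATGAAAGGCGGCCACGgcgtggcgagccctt
Dnajc3, chr14:118937812-118937860, plus strand: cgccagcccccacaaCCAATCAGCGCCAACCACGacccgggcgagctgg
These 4 were chosen after their values were seen, and differed from control by 0.49, 0.55, 0.41 and 0.94 on the log2(FPKM + 1) scale. Of the other 5 chaperones with the element, Derl3 differed by 0.72, Canx by 0.38 and Creld2 by 0.31, while Syvn1, at 0.04, and Calr, at -0.05, lay at the control level.

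Genes of the oxidative stress response that NRF2 controls, with other antioxidant enzymes, had 3 of 36 at least 2-fold higher and 1 lower, and a median of 0.25. The NRF2 gene itself, Nfe2l2, was at 17.1 FPKM in control beside 43.8 in Dnm1l-/-, with 35.4 in Fis1-/- and 21.4 in Mff-/-. Gss, glutathione synthetase, was at 11.6 in control against 29.8 in Fis1-/-, and Cat, catalase, at 22.8 and 48.5. Glrx, a glutaredoxin, was at 22.0 and 8.04. The usual NRF2 target Hmox1 lay the other way, at 93.8 and 58.7 FPKM. The antioxidant response element TGACNNNGC was in 9 of 31 promoters of this list (29.0%) and in 17.3% of all. It was not particular to this list. The stress lists held it in 20 of 79 promoters (25.3%), and in 7 of 20 of their genes at least 2-fold lower (35%).

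Genes that early embryos or germ cells express were higher in Fis1-/-. Of 14 compared genes of the rare 2-cell-like state, 13 passed 2-fold above control and 0 below it, with a median of 1.72. Only 4 of them reached 1 FPKM in control, so most passed the filter through a library in which they are high. Among all 253 genes compared that were under 1 FPKM in control, 64 (25.3%) were higher, and none could be lower. Without the filter, all 28 genes of the list in the table lay above control, with a median of 0.98. Zscan4f, a zinc finger gene of that state, was at 1.296 FPKM in control beside 27.3 in Dnm1l-/-, with 15.9 in Fis1-/- and 9.28 in Mff-/-. The ratio of Fis1-/- to control was 12.3 with a counting interval of 9.87 to 15.4, and control was the lowest library. Dux, which encodes the factor that switches this state on, was below the filter, at 0.0412 FPKM in control against 0.546 in Fis1-/-. Zscan4, Tcstv and Usp17l genes are families of near-identical copies, so the split of fragments among their members is uncertain. Arl14epl and AF067061 were listed because they were known to differ here.

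The germline and methylation-silenced list had 22 members in the comparison, 11 of them past 2-fold above control and 0 below, with a median of 0.96, or 0.23 over the 44 in the table. With control at 1 FPKM or more, 8 were higher, so some passed the filter through a library in which they are high. Rhox5, an X-linked homeobox gene known to be silenced by DNA methylation in many tissues, was at 76.8 FPKM in control beside 779 in Dnm1l-/-, with 764 in Fis1-/- and 228 in Mff-/-. The ratio to control was 9.95 in Fis1-/-, with a counting interval of 9.53 to 10.4. Its neighbours in the Rhox cluster were less abundant and also above control. Rhox6 was at 6.02, 43.8, 30.1 and 5.76 FPKM and Rhox9 at 4.23, 36.0, 24.5 and 5.33, while Rhox7 reached 3.78 and Rhox1 2.66 in Fis1-/-, from less than 0.1 FPKM each in control. Msln, mesothelin, had the largest difference above control of all genes compared, from 0.747 FPKM in control to 22.1 in Fis1-/-, and was at 30.9 in Dnm1l-/- and 2.09 in Mff-/-. Fmr1nb, a cancer-testis gene, was at 5.28 and 36.5, and Dazl, a germ cell RNA-binding protein, at 1.10 and 3.84. Msln, Serpinb6c and Fmr1nb were listed because they were known to differ here. Outside the lists, the germ cell factor Sohlh2 was at 0.713, 10.4, 7.95 and 0.433 FPKM and the aspartic protease gene Napsa at 15.1, 127, 80.0 and 5.35. The keratin gene Krt17 was at 10.7, 81.6, 60.3 and 33.5.

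Imprinted genes stood on both sides. Of 26 compared, 5 were at least 2-fold higher and 4 lower, and the median was 0.17. Mest, a paternally expressed gene, was at 27.2 FPKM in control beside 0.909 in Dnm1l-/-, with 2.61 in Fis1-/- and 25.1 in Mff-/-. Gnas, a complex locus with imprinted and biallelic transcripts, was at 228, 58.1, 57.0 and 265 FPKM, summed over its 8 transcripts. Phlda2, a maternally expressed growth restrainer, was at 59.5, 26.2, 13.6 and 89.6, with Fis1-/- the lowest. Cdkn1c, a maternally expressed cell cycle inhibitor, was at 9.65 in control against 3.73 in Fis1-/-. The higher genes were the paternally expressed Sgce (2.49 and 10.4), Slc38a4 (29.7 and 95.7), Peg10 (45.5 and 119) and Plagl1 (1.07 and 3.93), and Grb10 (7.60 and 21.7). Of the enzymes of DNA methylation, 1 of 16 passed 2-fold. Dnmt3a, a de novo methyltransferase, was at 7.74 FPKM in control beside 2.29 in Dnm1l-/-, with 2.79 in Fis1-/- and 7.43 in Mff-/-. Dnmt3b was at 31.0 and 20.3 in control and Fis1-/-. DNA methylation was not measured.

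**Figure D4:**
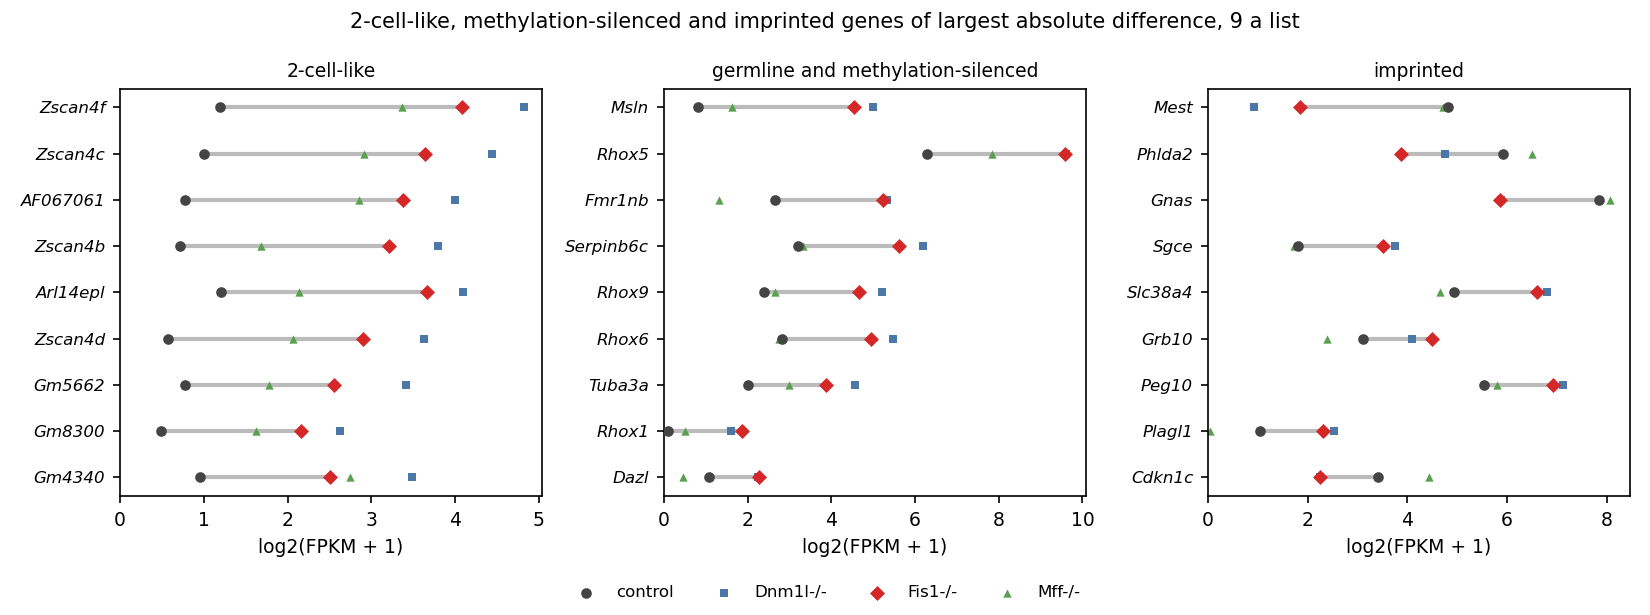
Values of log2(FPKM + 1) in the 4 libraries for the 9 genes of largest absolute difference in 3 lists, with a grey bar joining control (circle) to Fis1-/- (diamond). In the left and middle panels each diamond lies to the right of its circle, while in the right panel Mest, Phlda2, Gnas and Cdkn1c lie to the left, Mest going from 27.2 to 2.61 FPKM.

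The stem cell identity genes stayed expressed. Of 30 core and naive pluripotency genes, 1 was at least 2-fold higher, 2 were lower and the median was -0.02. The 12 core genes had a median of -0.26 and the 18 naive genes one of 0.14. Pou5f1 was at 1208 FPKM in control beside 913 in Dnm1l-/-, with 808 in Fis1-/- and 1753 in Mff-/-, and Sox2 at 98.5, 95.6, 106.5 and 110. Tfcp2l1, a naive-state factor, was at 35.4, 114, 88.8 and 23.5 FPKM, and Nanog at 221, 437, 389 and 178. Dppa3, a maternal factor that guards DNA methylation marks, was at 26.2 in control against 5.36 in Fis1-/-, and Tcf15, a gene of cells priming to leave the naive state that was listed as known to differ here, at 40.7 and 10.3. Among formative and primed genes 1 of 20 was higher, the epithelial factor Grhl2, and 3 were lower, namely Sox11, Dnmt3a and Etv4. Etv4, an ERK-induced factor, was at 31.4 FPKM in control against 14.4 in Fis1-/-. Of 35 ERK, BMP and Nodal genes, Id2 was higher, at 7.46 and 19.2, and Id1, Ier2 and Etv4 were lower, Id1 at 22.3 and 7.85.

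Markers of other cell types were read beside those of embryonic stem cells. All 10 embryonic stem cell markers were above 1 FPKM in both libraries, with a summed level of 5857 FPKM in control against 5089 in Fis1-/-. The 9 defining markers of feeder fibroblasts summed to 9.47 in control beside 8.47 in Dnm1l-/-, with 9.201 in Fis1-/- and 22.9 in Mff-/-, and Lum was under 0.1 FPKM in all 4. The whole list of 24 feeder genes, most of it carried by Vim (170 FPKM in control against 119 in Fis1-/-) and Fn1 (106.7 and 103), summed to 383 in control and 357 in Fis1-/-, and 14 of the 24 were at 1 FPKM or more in each. Their part in the results was not tested. Trophoblast markers summed to 2.91 in control against 5.33 in Fis1-/-, primitive endoderm markers to 3.04 and 0.824, neural markers to 4.06 and 3.57, and mesoderm markers to 0.449 and 0.132. Over the longer lists, trophoblast and keratin genes had 2 of 12 higher, Peg10 and Id2, against 7 in Dnm1l-/- and 0 in Mff-/-. The keratin gene Krt17, given above, is not in that list. Endoderm and basement membrane genes had 0 of 9 beyond 2-fold with a median of -0.36, and neural genes 1 of 15 higher, Zfp521, and 2 lower, Sox11 and Crmp1. Of 14 fibroblast genes 1 was higher, Fstl1, at 16.1 FPKM in control against 44.6 in Fis1-/-.

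The machinery that Fis1 belongs to mostly stayed near control. Of 30 genes of mitochondrial fission and fusion, Fis1 among them, 0 passed 2-fold in either direction, and the median was -0.01. After Fis1 the largest difference was that of Spg7, at 25.9 FPKM in control against 16.6 in Fis1-/-. The GTPase gene Dnm1l was at 35.0 FPKM in control against 35.5 in Fis1-/-. The Drp1 receptor genes Mff, at 28.9 and 34.7, Mief1, at 10.9 and 9.28, and Mief2, at 4.58 and 5.27, were all within 1.5-fold. So were the fusion genes Mfn1, at 8.27 and 7.69, Mfn2, at 7.73 and 6.97, and Opa1, at 11.7 and 11.8. Among genes that Fis1 is known to work with, Tbc1d15, a Rab7 regulator recruited by Fis1, was at 17.6 and 21.6 FPKM. Tbc1d17 was at 19.4 and 15.0, and Bcap31, the partner of Fis1 at the endoplasmic reticulum, at 87.4 and 92.7. Rab7 itself was lower, at 175 and 103 FPKM. Of 28 mitophagy and lysosomal contact genes, 13 lay above control and 15 below, with a median of -0.04. The autophagy receptor Calcoco2 alone passed 2-fold, at 6.88 FPKM in control beside 39.8 in Dnm1l-/-, with 15.4 in Fis1-/- and 15.1 in Mff-/-. On the log2(FPKM + 1) scale, those nearest to 2-fold below control were Gabarapl2, at 161.5 and 83.95 FPKM, and Optn, at 7.82 and 3.66. Peroxisome division and import genes, 15 in all, had 0 beyond 2-fold and a median of 0.05.

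Energy metabolism genes showed small differences. Complex I had 0 of 37 genes beyond 2-fold and a median of -0.14, and complexes II to V had 0 of 40 higher, 1 lower and a median of -0.09, with 32 of the 40 below control. The 1 was Atp5e, the epsilon subunit of ATP synthase, at 612 FPKM in control beside 271 in Dnm1l-/-, with 275 in Fis1-/- and 991 in Mff-/-, a short gene with copies elsewhere in the genome, so its value is uncertain. Glycolysis and lactate genes had 0 of 30 beyond 2-fold and a median of 0.07, and the lactate dehydrogenase gene Ldhb was at 712 FPKM in control against 388 in Fis1-/-. The tricarboxylic acid cycle had 0 of 26 and a median within 0.01 of 0. Among its genes Pcx, pyruvate carboxylase, was at 23.9 and 14.3 FPKM. Fatty acid oxidation and lipid storage genes had 1 of 30 lower and 0 higher. That gene was G0s2, an inhibitor of the lipase ATGL, at 9.89 FPKM in control beside 0.657 in Dnm1l-/-, with 0.282 in Fis1-/- and 13.4 in Mff-/-. The Fis1-/- value rests on about 9 estimated fragments. Cholesterol synthesis genes had 0 of 23, mitochondrial chaperones and proteases 0 of 14, mitochondrial DNA and transcription genes 0 of 15, calcium and contact genes 0 of 17 and heat shock genes 0 of 13 beyond 2-fold. Genes of the mitochondrial genome were not analysed here.

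**Figure D5:**
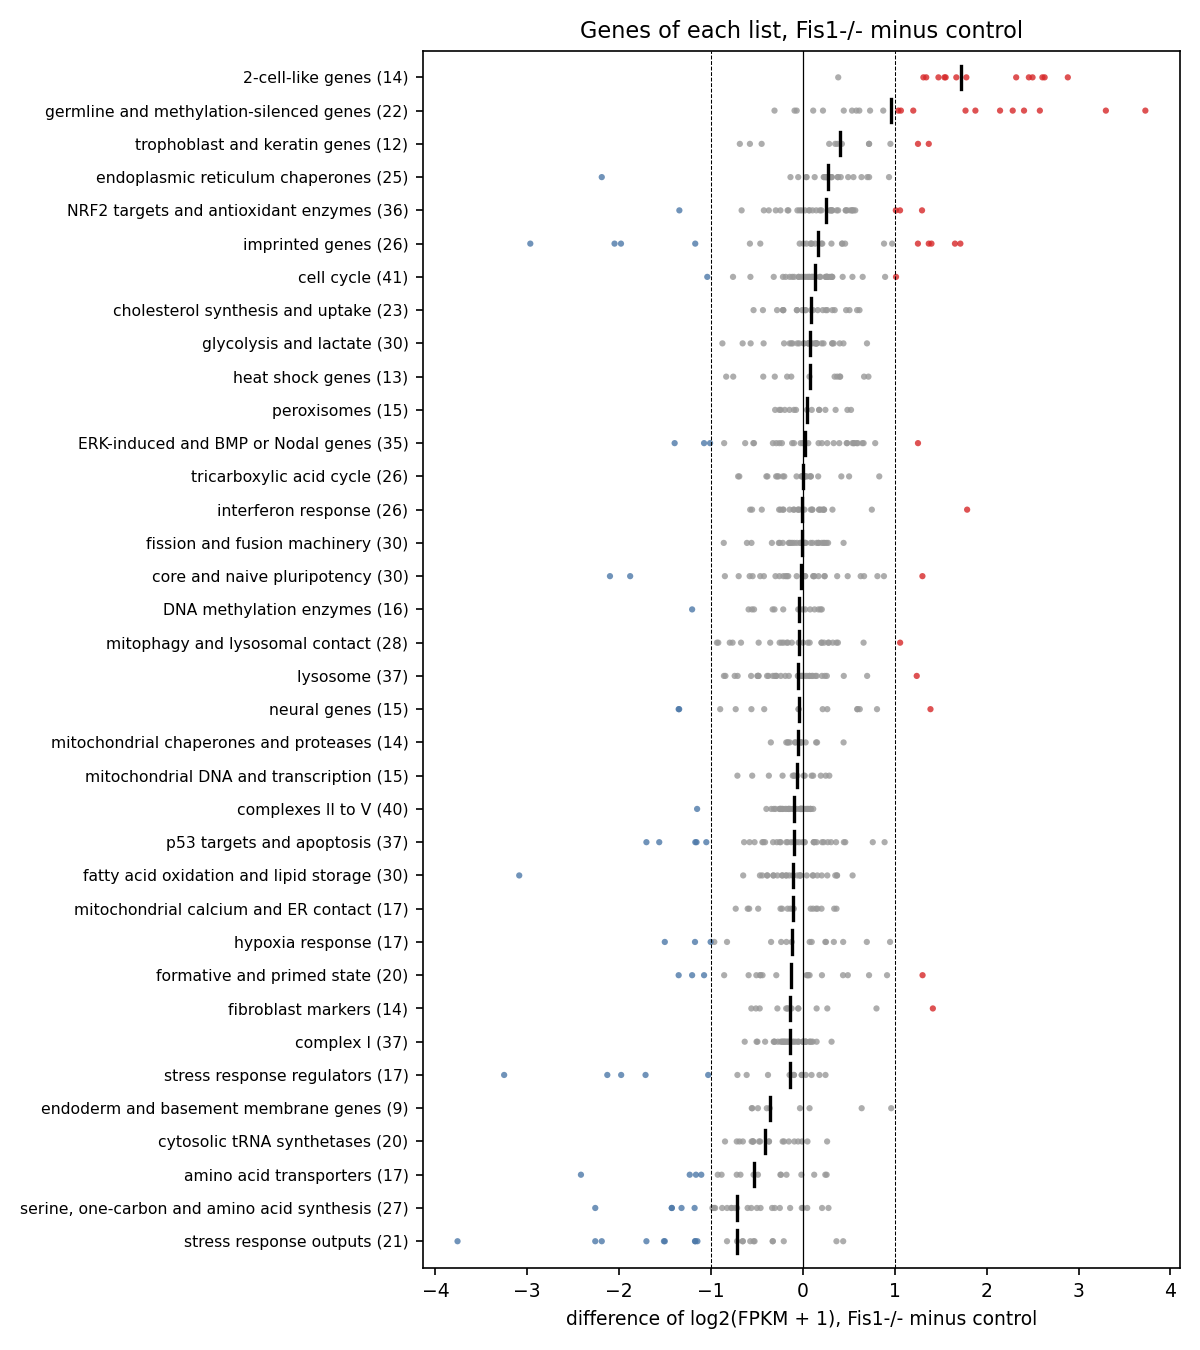
Differences of log2(FPKM + 1), Fis1-/- minus control, for the compared genes of each list except the Y-linked genes, which are left out of the plot, with the number of genes in brackets and a black bar at the median. Dashed lines mark 2-fold. Lists run from the stress response outputs (median -0.72) at the bottom to the 2-cell-like genes (median 1.72) at the top, and most medians lie near 0.

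In the cell cycle list 1 of 41 was higher, Top2a, at 78.6 FPKM in control against 160 in Fis1-/-, and 1 lower, the cyclin gene Ccnd1, at 24.1 and 11.2. Of 37 p53 targets and apoptosis genes 0 were higher and 5 lower, including the BH3-only genes Bmf, at 3.85 and 0.642, Hrk, at 1.53 and 0.133, and Bik, at 2.88 and 0.873. The other 2, Gdf15 and Sesn2, are also in the stress lists. Of 26 interferon response genes 1 was higher, Oasl1, at 4.38 FPKM in control beside 39.9 in Dnm1l-/-, with 17.6 in Fis1-/- and 2.53 in Mff-/-. Of 17 hypoxia genes 3 were lower, Ddit4, Vldlr and Ndrg1, and of 37 lysosome genes 1 was higher, the acid lipase gene Lipa, at 0.988 and 3.69.

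Few genes set the Fis1-/- library apart from all 3 others. Only Cldn15 was at least 2-fold above every other library (0.00936% of genes), and 3 genes were at least 2-fold below (0.0281%). The corresponding counts were 14 and 6 for Dnm1l-/-, 185 and 181 for Mff-/-, and 8 and 25 for control. The 3 low genes were Lgals9, a galectin, at 36.6 FPKM in control beside 43.0 in Dnm1l-/-, with 13.4 in Fis1-/- and 41.4 in Mff-/-, Hmga2, a chromatin protein, at 3.93, 3.41, 1.19 and 3.96, and Hist2h2aa1. The last is a histone gene with a near-identical copy, at 1.46 FPKM in control against 0.0136 in Fis1-/-, and its value is uncertain. Next above were Tstd1, at 2.03, 2.07, 6.23 and 2.66 FPKM, and among more abundant genes Emb, the transporter chaperone embigin, at 29.6, 35.3, 61.0 and 36.2, and Nrp2, a semaphorin receptor, at 12.8, 11.5, 21.2 and 5.86. Next below, besides Trib3, Phlda2 and Nupr1, were Hopx, Plac8, Tgm1 and Ctsc, the last a lysosomal protease at 3.65, 3.91, 1.56 and 4.77 FPKM.

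Several differences came with the chromosome or the composition of a gene. Y-linked genes that control expressed were close to 0 in Fis1-/-. Eif2s3y was at 33.0 FPKM in control beside 0.136 in Dnm1l-/-, with 0.0834 in Fis1-/- and 46.8 in Mff-/-, and Ddx3y at 3.59, 0.0121, 0.0178 and 4.17. About 2212 estimated fragments of Eif2s3y in control compare with 5 in Fis1-/-. Eif3j1, second among the lowest genes, was at 20.1 FPKM in control against 0.0369 in Fis1-/-, but its near-identical neighbour on chromosome 2, Eif3j2, was at 25.3 and 51.3, and the division between them is uncertain. The 594 genes of chromosome 8 had a median of -0.29 in Fis1-/-, -0.30 in Dnm1l-/- and -0.33 in Mff-/-, all against the same control. On chromosome X, 25 of 343 genes (7.29%) were at least 2-fold higher, among them Rhox5, Rhox6, Rhox9, Fmr1nb, the glypican gene Gpc3, at 23.5 and 79.1 FPKM, and Pgrmc1, at 40.0 and 112. Differences ran with GC content across genes (Spearman -0.39 over 10621 genes of the same 2 libraries). In 5 equal groups of rising GC content the medians were 0.18, 0.10, 0.01, -0.10 and -0.19, and the group of highest GC content held 83 of the lower genes and 15 of the higher. With differences centred within GC bins, an alternative added after seeing the data, 18 of the stress list genes were lower and their median was -0.47, and 13 of the 2-cell-like genes and 9 of the germline genes were higher. The part of composition in these results was not tested further.

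The share of each transcript within its gene was also compared. Of 1481 genes with several transcripts and at least 10 FPKM, 35 moved the share of their leading control transcript by 20 percentage points or more, and the median absolute change was 2.99 points. Beside Fis1, Ptprs, a receptor phosphatase, went from 64.3% to 0.946%, with a summed level of 10.4 FPKM in control against 14.4 in Fis1-/-, but was at 31.1% in Dnm1l-/- and 2.26% in Mff-/-. Trim13, a ubiquitin ligase of the endoplasmic reticulum, went from 53.2% to 20.7%, and its sum was 16.7 and 42.0 FPKM. These shares are the authors' estimates for overlapping transcripts, and no counting interval was given to them.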

How the data were processed

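Libraries were made from total RNA with an Illumina TruSeq kit, per the labels' protocols, which do not say whether strand was kept. Reads were processed with FastQC 0.11.5, STAR 2.5.2b, StringTie 1.3.3b and R 3.6.1 on mm10, per the submitters' processing notes. The authors deposited 1 table of 33818 transcripts with an FPKM value in each of the 4 libraries and no counts. The transcript lengths deposited beside them were used to estimate depth and as a property of genes. Each line has 1 library here, which was mapped to its line by its column name and genotype label.

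FPKM values were summed per gene symbol. A symbol was missing for 565 transcripts, and the gene identifier gave one for 552. Differences are of log2(FPKM + 1), a pseudocount of 1 that understates the change of low genes, with a threshold of 2-fold as a description. The spacing of low values put the depth at 37800000 fragments for control and 36100000 for Fis1-/- (35400000 for Dnm1l-/- and 35800000 for Mff-/-), with 88.0% to 92.3% of low values within 0.15 of a whole fragment. FPKM totals ran from 597921 to 707746. Intervals at 95% are exact binomial intervals on estimated fragments of genes with 1 transcript (for Fis1, of the sum), and cover counting error only. The call of genes past 2-fold was also tried on simulated fragments with known changes, without the lowest genes. The depth estimate and the intervals were not tested in that way. The 37 gene lists hold 953 genes, of which 814 were compared, 120 were below the filter and 19 had no matching symbol. The members and the lists were chosen with earlier results of these data known. Genes named in the text were Fis1, neighbours within 200 kb, the 15 highest and 15 lowest differences, up to 6 members of each list that passed 2-fold, the genes furthest from all other libraries, and abundant genes, with others of known role named for context after their values were seen. Some genes that this rule names are not reported here. Promoters came from RefSeq. The alternatives are listed in the closing section. Python 3.11.15, numpy 2.4.6, pandas 2.3.3, scipy 1.17.1 and matplotlib 3.10.9 were used.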

Additional observations from a re-analysis of the deposited data

How the results depend on the processing

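With a pseudocount of 0.1, 307 genes were higher and 362 lower in Fis1-/-, with 5 they were 63 and 63, with a mean of at least 5 FPKM 106 and 125, and at 1.5-fold 593 and 741. With control at 1 FPKM or more, 128 genes were higher and 208 lower (38.1% of calls higher, against 48.7%). With TPM they were 269 and 230 (53.9% higher) and with the mean total 218 and 177 (55.2% higher), so that higher genes then outnumbered lower ones. The count above every other library was 4 with a pseudocount of 0.1, 0 with control at 1 FPKM or more, 17 at 1.5-fold, and 2 with no filter, with TPM, with the mean total, without the 1% most abundant genes and with either GC or length bins. The count below was 17 with a pseudocount of 0.1, 1 with 5, 1 with a mean of 5 FPKM and 30 at 1.5-fold. The stress lists had 14 lower genes with a pseudocount of 5 and 44 at 1.5-fold. The 2-cell-like list had 6 higher with a pseudocount of 5, 3 with control at 1 FPKM and 7 with a mean of 5 FPKM, and the germline list had 7 under the first and last of these. The cause was not tested, beyond the filters leaving fewer genes and the pseudocount compressing low values. Fis1 was at -0.71 with GC bins, -2.14 for NM_025562 alone and, reversed, 1.37 for NM_001163243 alone. Other scalings moved the median of all genes by at most 0.06. The 107 listed or named genes beyond 2-fold kept their sign in every setting tried, and 41 stayed beyond 2-fold in all 12 settings that keep the 2-fold threshold. Another 14 had no value in some settings, where they were left out of the comparison, and stayed beyond 2-fold in the rest. GC and length bins were chosen after seeing the data. No paired analysis was possible because each line has 1 library, and leaving out a replicate could not be done for the same reason.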

Other observations

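Noncoding transcripts lay outside the comparison of protein-coding genes. Of 2253 noncoding symbols of at least 200 bases, 304 passed the same filter, and 9 (2.96%) were at least 2-fold higher in Fis1-/- and 11 (3.62%) lower, with a median of -0.06. H19, the maternally expressed RNA beside Igf2, was at 0.874 FPKM in control beside 0.556 in Dnm1l-/-, with 13.6 in Fis1-/- and 1.01 in Mff-/-, and was the only noncoding symbol at least 2-fold above every other library. Igf2 itself was at 2.56 in control against 1.58 in Fis1-/-. The maternally expressed RNAs of the Dlk1 to Dio3 region were lower. Meg3 was at 59.8, 11.3, 21.9 and 62.7 FPKM in control, Dnm1l-/-, Fis1-/- and Mff-/-, Rian at 45.9, 9.24, 16.7 and 41.0, and Mirg at 20.7, 3.52, 5.65 and 17.0. Neat1, at 18.9 FPKM in control against 19.02 in Fis1-/-, and Malat1, at 50.6 and 49.9, lay close to control.

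Among the 300 most abundant genes, the thyrotropin-releasing hormone gene Trh was at 645 FPKM in control beside 135 in Dnm1l-/-, with 171 in Fis1-/- and 435 in Mff-/-, and the X-linked ubiquitin ligase gene Mid1 at 1067, 352, 453 and 1228. The tetraspanin gene Cd9 was at 229, 438, 383 and 161, and the cytosolic chaperone gene Hsp90aa1 at 1056, 1983, 1676 and 1126.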
